A study of Mus musculus with 18 samples.

Results

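The response of parental EBRTcH3 embryonic stem cells (ESCs) to 5 days of LY294002 was followed in 4 of the 18 arrays of the series. They are the 2 arrays of LY294002-treated cells in serum at day 5 and the untreated array that belongs to each. They were chosen by their labels alone: parental cells, serum medium with LIF, no LY294002 or LY294002 for 5 days, with no 2i medium and no introduced cDNA. EBRTcH3 is a male mouse ESC line of the 129SV background. The untreated and day 5 samples labelled ver2 form replicate 2, and those without that mark form replicate 1. Each day 5 sample was set against its own untreated sample, so that there were 2 pairs. One array was made per sample, and the labels do not say whether the replicates were separate cultures. The p-values below therefore measure only the spread between the arrays of the fit, which also held the c-Myc derivatives described next.

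The other arrays covered the same parental cells in 2i medium, 2 derivatives that overexpress wild-type or T58A c-Myc, and Max-null ESCs with or without overexpressed p110 alpha. The c-Myc derivatives received LY294002 in serum and entered the fit as a source of the spread between pairs. The 2i cells received it in 2i, a medium that contains inhibitors of MEK and GSK3. Both serve here as samples that share no array with the parental serum pairs. The parental, c-Myc and 2i samples all carry the EBRTcH3 background, and the dose of LY294002 was not given in the sources used here. The series' design text spells the compound LY4294002.

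LY294002 inhibits phosphoinositide 3-kinase (PI3K), which turns a membrane lipid into the signal that recruits and activates the kinase AKT. AKT in turn restrains FOXO transcription factors and GSK3 and feeds mTORC1, which promotes translation and glucose use. In mouse ESCs, PI3K signalling is known to help LIF keep the naive state, in which cells self-renew and resemble the epiblast before implantation. Cells that leave this state first pass through a formative state, in which epiblast genes such as Pou3f1 and Dnmt3b are switched on before any germ layer is chosen.

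The 4 arrays did not share 1 scale. The array medians were 5.05 and 5.03 in replicate 1 and 5.37 in both samples of replicate 2, and the values of replicate 1 were written with up to 9 decimals and those of replicate 2 with up to 6. The 2 pairs therefore appear to come from separate RMA runs, which no label states. A difference within a pair was taken inside 1 run, whereas a level set across replicates carries any offset between runs. Over the 13404 genes tested, the untreated level was higher in replicate 2 than in replicate 1 for 8491 genes, with a median difference of 0.21 on the log2 scale. Levels below are on the deposited log2 scale.

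The 4 samples carried the markers of ESCs. All 7 core markers lay between 9.04 and 13.2 in every sample. Pou5f1, which encodes the central pluripotency factor OCT4, was at 12.75 and 12.67 in replicate 1 and at 12.84 and 12.89 in replicate 2, untreated and at day 5. Of 13 fibroblast markers, which would report feeder cells, 3 exceeded a level of 4.64 in each sample of replicate 1, and 4 untreated and 5 at day 5 did so in replicate 2. Their summed level was 53.3 and 51.7 in replicate 1 and 53.7 and 57.4 in replicate 2. The collagen genes Col1a1 and Col3a1 were at 4.10 or below in all 4 samples. Higher fibroblast markers were Pdgfrb, at 7.82 and 5.54 in replicate 1 and at 4.23 and 5.06 in replicate 2, and Thy1, at 6.57 and 5.53 and at 5.22 and 5.15. Twist1 went from 5.26 to 5.54 and from 5.21 to 6.35, and Col1a2 from 3.97 to 4.21 and from 5.21 to 6.10. The 6 primitive endoderm markers reached 5.87 at most and the 5 trophoblast markers 5.85. The 3 neuroectoderm markers measured summed to 14.6 in both samples of replicate 1 and to 19 and 14.5 in replicate 2. Pax6 was at 6.02 and 6.41 in replicate 1 and at 8.22 and 5.42 in replicate 2, and Sox1 at 5.52 and 5.04 and at 6.76 and 4.89. The untreated sample of replicate 2 was thus the highest for both. The part of these markers in the results was not tested. In bulk RNA, fewer cells of a type and less RNA per cell cannot be told apart.

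The pairs agreed on a core of genes and differed on many others. In pair 1, 89 genes (0.664%) were at least 2-fold higher at day 5 and 364 (2.72%) at least 2-fold lower. In pair 2, 779 (5.81%) were higher and 523 (3.9%) lower. The same direction and at least 2-fold in both pairs was found for 199 genes, 1.48% of those tested: 61 higher (0.455%) and 138 lower (1.03%). These 61 were 68.5% of the genes higher in pair 1 and 7.83% of those higher in pair 2. The 138 were 37.9% of the genes lower in pair 1 and 26.4% of those lower in pair 2. At least 2-fold in opposite directions were 20 genes (0.149%), and all 20 were lower in pair 1 and higher in pair 2. Without a size limit, 8191 of 13404 genes (61.1%) had the same sign in both pairs, and the correlation over genes was r = 0.42, a description in which genes are not independent.

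**Figure D1:**
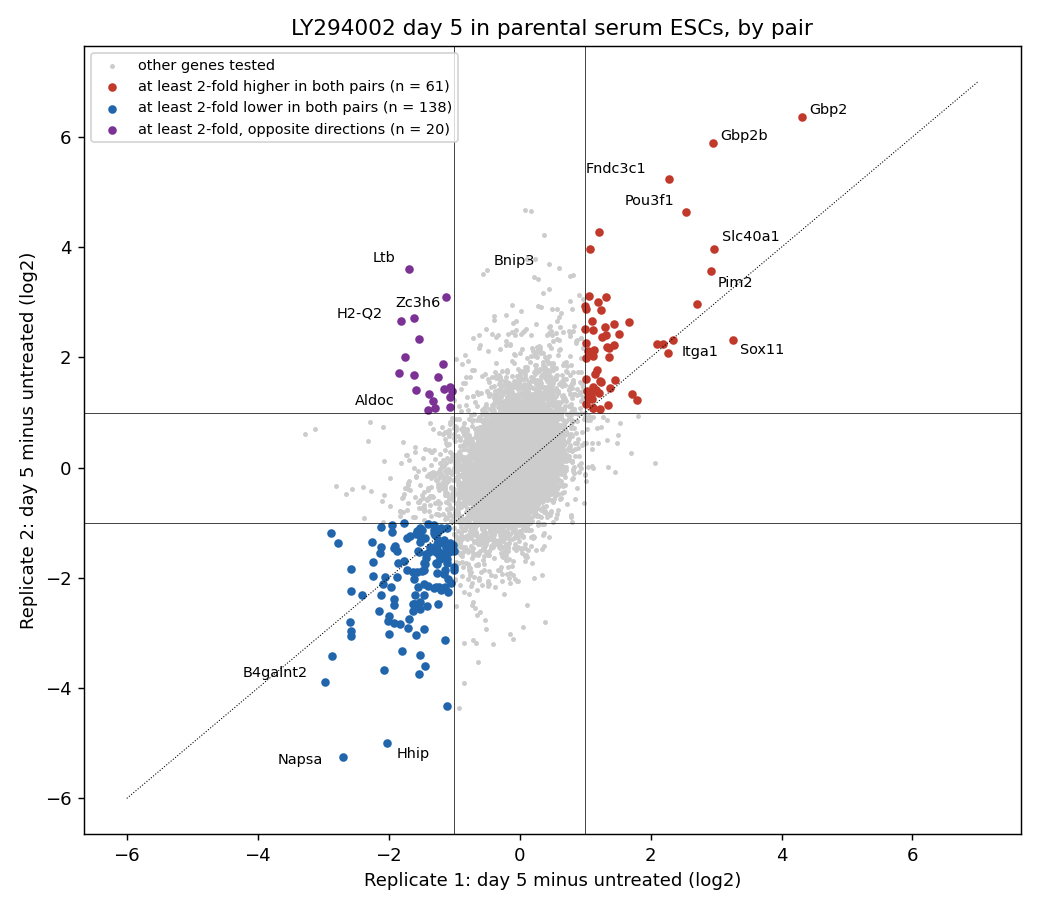
Day 5 minus untreated difference (log2) of each of 13404 genes in pair 1 (x axis) and pair 2 (y axis), with lines at 2-fold and a dotted line of equality. The 61 red and 138 blue genes differed at least 2-fold in the same direction in both pairs, and the 20 purple genes lie only in the upper left, lower in pair 1 and higher in pair 2.

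A limma fit over the 8 serum samples with the pair as a block called 71 genes (0.53%) at an adjusted p below 0.05, of which 15 rose (0.112%) and 56 fell (0.418%). All 71 differed at least 2-fold in both pairs. The fit had 2 residual degrees of freedom and took its spread from the c-Myc lines as well as from the parental pairs. Without either c-Myc line it called 0 genes, with 1470 and 1464 genes at an unadjusted p below 0.05. Centring each array on its median gave 53 rises and 81 falls, which moves the share of rises. The other 128 of the 199 genes did not pass, and their values are given without a call.

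Levels of the untreated and day 5 samples did not overlap for most of these genes in spite of the offset between replicates. Both day 5 levels lay above both untreated levels for 53 of the 61 higher genes, against 14.6% of all genes tested. Both lay below for 133 of the 138 lower genes, against 11.8% of all genes. The direction was fixed by how the genes were chosen, so these counts describe the levels only. The differences were larger in pair 2 for 52 of the 61 higher and 95 of the 138 lower genes.

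The 12 higher genes with the largest difference, taking the smaller of the pairs, included the kinase gene Pim2 and the transcription factor genes Sox11 and Pou3f1. Pim2, a serine/threonine kinase that promotes growth and survival, was at 7.23 untreated and 10.15 at day 5 in replicate 1, and at 7.47 and 11.04 in replicate 2. It rose 9.47-fold (3.24 ± 0.21, SE, n = 2 pairs; limma adjusted p = 0.0437). Starting levels were thus alike in the 2 replicates, and neither day 5 sample overlapped an untreated one. In replicate 2, whose untreated sample the day 2 array shares, Pim2 was already at 11.00 on day 2.

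Sox11, a SoxC transcription factor of neural and epiblast cells, went from 6.01 to 9.27 in replicate 1 and from 7.86 to 10.18 in replicate 2. It rose 6.91-fold (2.79 ± 0.25; limma adjusted p = 0.0437). Its untreated level was 1.84 higher in replicate 2, and the day 5 levels differed by less.

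Sox3 and Grhl2 are not among these 12 and are given as called genes of the formative and primed epiblast list. Sox3, a SoxB1 factor expressed in epiblast and neural progenitors, was at 5.39 and 6.85 in replicate 1 and at 5.08 and 6.67 in replicate 2. It rose 2.87-fold (1.52 ± 0.12; limma adjusted p = 0.0437), from low levels that were close in both replicates. Grhl2, which directs epithelial gene expression, went from 8.40 to 9.74 and from 8.50 to 9.64. It rose 2.37-fold (1.24 ± 0.12; limma adjusted p = 0.0437), but missed the threshold once arrays were centred (adjusted p = 0.0516) and with the mean of its probe sets (0.143).

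Itga1 and Efnb2 encode cell surface proteins. Itga1, the integrin alpha 1 chain of a collagen receptor, was at 3.36 and 5.70 in replicate 1 and at 4.08 and 6.40 in replicate 2. Its pair differences of 2.34 and 2.32 were nearly equal (5.02-fold; limma adjusted p = 0.0395). The other Itga1 probe set, whose untreated level was 3.17 and 3.42, moved by 0.15 and 0.05. Efnb2, the ligand ephrin-B2, went from 5.68 to 7.95 and from 7.29 to 9.38 (4.52-fold; limma adjusted p = 0.0395). Another of its probe sets, whose untreated level was 4.21 and 4.39, moved by 0.06 and -0.09.

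Slc40a1, the iron exporter ferroportin, was at 4.46 and 7.43 in replicate 1 and at 5.21 and 9.19 in replicate 2 (11.1-fold; limma adjusted p = 0.0437). Hs6st2, which adds sulfate to heparan sulfate chains, went from 3.10 to 5.81 and from 5.57 to 8.54. Its untreated level in replicate 2 lay close to its day 5 level in replicate 1, although the differences of 2.71 and 2.97 were alike. Its other probe sets moved less, by 0.25 and 0.42, by 0.88 and 1.17, and by 0.42 and 0.13. Peg10, an imprinted gene derived from a retrotransposon, went from 3.17 to 5.27 and from 4.58 to 6.82 (4.49-fold; limma adjusted p = 0.0437).

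Of the 12 genes with the largest differences, 4 did not pass the test, and the difference of each was larger in pair 2. Gbp2, an interferon-inducible guanylate-binding protein, was at 2.37 untreated and 6.67 at day 5 in replicate 1, and at 2.85 and 9.21 in replicate 2. Its differences of 4.31 and 6.36 were the largest by the smaller of the pairs (limma adjusted p = 0.0654). Gbp2b, a neighbouring member of that family, went from 2.88 to 5.82 and from 3.59 to 9.48 (limma adjusted p = 0.0882). Both were near the bottom of the array range untreated and far from it at day 5 in both replicates. The Gbp2 value comes from a probe set whose suffix marks probes that can also match related sequences, so the 2 genes may share signal. The other Gbp2 probe set gave differences of 3.43 and 6.13.

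Pou3f1 (OCT6), a transcription factor that marks the formative epiblast, went from 6.60 to 9.15 and from 5.95 to 10.59 (limma adjusted p = 0.0852). Fndc3c1 went from 3.14 to 5.43 and from 4.51 to 9.75 (limma adjusted p = 0.108). The difference in pair 2 exceeded that in pair 1 by 2.05 to 2.95 log2 units in these 4 genes.

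**Figure D2:**
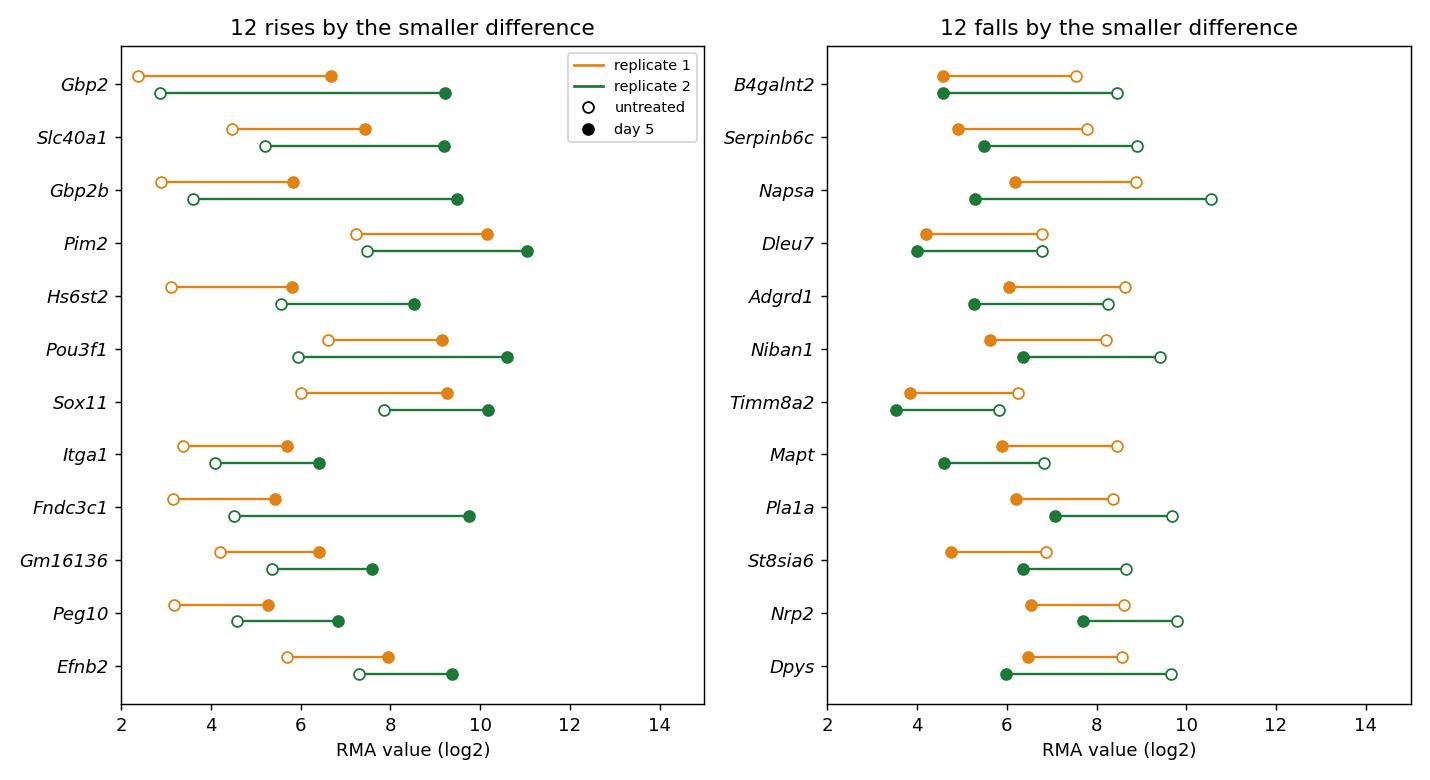
RMA values (log2, x axis) of the 12 largest rises and 12 largest falls by the smaller of the 2 pair differences, untreated (open) and at day 5 (filled), for replicate 1 (orange) and replicate 2 (green). In all 24 genes both day 5 samples lie on the same side of both untreated samples, while starting levels differ between replicates.

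The 12 lower genes were ranked in the same way. B4galnt2, which adds a terminal sugar to cell surface glycans, was at 7.54 untreated and 4.57 at day 5 in replicate 1 and at 8.45 and 4.57 in replicate 2. It fell by 3.43 on the log2 scale (SE 0.26; limma adjusted p = 0.0437). The day 5 levels were equal although the starting levels differed. Both lay below the level filter of 4.64, near the low end of the arrays, so their likeness does not show a shared end point. With the mean of its probe sets it missed the threshold (adjusted p = 0.0828). Serpinb6c, a serpin family protease inhibitor, went from 7.78 to 4.92 and from 8.91 to 5.49 and fell by 3.14 (SE 0.17; limma adjusted p = 0.0395).

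Adgrd1, an adhesion G protein-coupled receptor, was at 8.62 and 6.05 in replicate 1 and at 8.25 and 5.28 in replicate 2. Nrp2, a receptor for semaphorins and VEGF, went from 8.62 to 6.53 and from 9.80 to 7.69, with differences of -2.09 and -2.11. Both fell in the limma fit, with adjusted p values of 0.0395 and 0.0437. St8sia6, a sialyltransferase, went from 6.87 to 4.76 and from 8.67 to 6.36, so that its replicate 2 level at day 5 was near its replicate 1 level before treatment. Dleu7 had the same starting level of 6.78 in both replicates and day 5 levels of 4.19 and 3.99. Mapt, the microtubule-binding protein tau, went from 8.46 to 5.88 and from 6.83 to 4.60, and another of its probe sets moved by -1.24 and 0.17.

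Napsa, an aspartic protease, went from 8.88 to 6.18 and from 10.54 to 5.29 with differences of -2.70 and -5.25, and did not pass (limma adjusted p = 0.0857). Dpys, a pyrimidine-degrading enzyme, went from 8.56 to 6.48 and from 9.65 to 5.98 (limma adjusted p = 0.0747). Its other probe sets, at 3.91 or below in every sample, moved by 0.23 and -0.31 and by 0.27 and 0.09.

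Further genes were chosen after their values were seen. Mitf, the master regulator of melanocytes and a lysosome gene regulator, went from 9.08 to 6.84 and from 8.36 to 6.40 and fell 4.30-fold (limma adjusted p = 0.0395). Trpm1, a channel known as a MITF target in pigment cells, went from 7.00 to 5.00 and from 7.95 to 5.27 (limma adjusted p = 0.0437). Abcb1a and Abcb1b, which encode drug efflux pumps, went from 8.18 to 6.27 and 8.74 to 6.35, and from 8.14 to 6.37 and 9.57 to 7.89. Both fell in the limma fit (adjusted p = 0.0437 for each).

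Genes of pluripotency were described by lists. All gene lists were chosen with earlier results of these data known, so shares within a list are a description only. Of 15 formative and primed epiblast genes tested, 3 rose (Pim2, Sox3 and Grhl2), against 0.112% of all genes tested, and 0 fell. At least 2-fold higher in both pairs were 9, against 0.455% of all genes tested. The list's median difference was 1.06 in pair 1 and 1.35 in pair 2, against 0.01 and 0.06 over all genes tested. Calls were not particular to this list: of 11 neuroectoderm genes tested, 2 rose (Sox11 and Sox3, which is in both lists) and 0 fell. Dnmt3b, the de novo DNA methyltransferase that epiblast cells switch on, went from 10.38 to 11.61 and from 10.79 to 12.37 (limma adjusted p = 0.0567). Cdh2, N-cadherin, went from 5.49 to 7.28 and from 8.38 to 9.60, so that replicate 2 began above the day 5 level of replicate 1.

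Of 18 naive pluripotency genes tested, 0 passed in limma, with 17 at an unadjusted p below 0.05, against 2927 (21.8%) of all genes tested. Of these 18, 2 were at least 2-fold lower in both pairs and 1 at least 2-fold higher, against 1.03% and 0.455% of all genes tested. Tcl1, an AKT coactivator, went from 10.98 to 9.37 and from 11.02 to 8.55 (limma adjusted p = 0.0612). Fbxo15 went from 11.13 to 9.93 and from 11.83 to 9.62 (0.0806). Gbx2, a STAT3 target counted as naive although the epiblast expresses it too, went the other way, from 8.62 to 10.06 and from 7.27 to 9.49 (0.0611). Of these 18 genes 15 were lower in both pairs, with medians of -0.56 in pair 1 and -1.04 in pair 2. The core list had medians of -0.01 and -0.26, and centring turned the first to 0.14. Nanog, a core factor, went from 12.29 to 11.62 and from 12.40 to 11.77 (limma adjusted p = 0.1).

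Components of the inhibited pathway had medians near 0. Of 21 PI3K pathway genes tested, 0 passed in limma, with 5 at an unadjusted p below 0.05, near the 21.8% of all genes. In both pairs 6 were higher and 8 lower, and the medians were -0.01 and -0.02. Tcl1 and Inpp5d, the lipid phosphatase SHIP1, were the 2 that were at least 2-fold lower in both pairs (1.03% of all genes). Inpp5d went from 9.36 to 7.90 and from 9.83 to 6.90 (limma adjusted p = 0.0918). Pik3ca, the catalytic subunit p110 alpha, was at 7.39 and 7.12 in replicate 1 and at 8.86 and 8.52 in replicate 2. Pdpk1, which phosphorylates AKT, was at 9.93 and 9.63 and at 10.56 and 10.24. Akt1 moved by 0.09 and 0.75, Tsc1 by -0.09 and -0.60, and the remaining kinases, subunits and phosphatases Akt2, Pik3cb, Pik3cd, Pik3r2, Gsk3a, Gsk3b, Rptor, Mtor and Rictor by at most 0.29 in either pair. Pik3r1 moved by 0.20 and 0.50, Inppl1 by -0.15 and 0.73, Phlpp1 by -0.33 and 0.24, Rheb by -0.01 and -0.27, Tsc2 by 0.06 and -0.14, and Eras by 0.06 and 0.35.

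FOXO targets and receptors that feed the pathway were described next. Of 23 tested, 0 passed in limma, with 11 at an unadjusted p below 0.05 (21.8% of all genes). At least 2-fold higher in both pairs were 3 (0.455% of all genes). Irs1, the insulin receptor substrate, went from 6.61 to 7.65 and from 7.33 to 8.62 (limma adjusted p = 0.0567). Irs2, its relative, went from 7.17 to 8.19 and from 7.36 to 8.96 (0.068). Fbxo32, a ubiquitin ligase known as a FOXO target in muscle, went from 4.52 to 5.53 and from 5.72 to 6.87 (0.0594). Igf1r moved by 0.23 and 0.98 and Erbb3 by -0.02 and 1.16. Insr moved by -0.60 and 0.86, Cited2 by -0.53 and 0.68 and Ccng2 by -0.37 and 0.55, so that these 3 had opposite signs in the pairs. The list's median was -0.03 in pair 1, which centring turned to 0.12, and 0.63 in pair 2.

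Myc, the gene for c-Myc, began at 9.30 in replicate 1 and at 7.43 in replicate 2 and read 10.26 and 9.60 at day 5. Its differences of 0.96 and 2.17 did not pass (limma adjusted p = 0.116). Mycn went from 10.95 to 11.55 and from 11.33 to 11.95, with nearly equal differences of 0.60 and 0.62 (0.128). Mga, a repressor that pairs with MAX, moved by 0.09 and -0.80, and Mxi1, another partner of MAX, by -0.31 and 0.93. Of the 13 network genes 0 passed in limma, with 4 at an unadjusted p below 0.05 (21.8% of all genes), and Max, Mnt, Mlx, Mlxip, Zbtb17, Mxd1, Mxd3, Mxd4 and Mycl each differed by less than 1 log2 unit in both pairs.

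The Hedgehog pathway, whose GLI factors switch on its own feedback genes, had 12 genes tested. In both pairs 4 were higher and 6 lower, with medians of -0.19 in pair 1 and 0.01 in pair 2, which centring turned to -0.15. Gli1, a GLI factor and target, went from 8.58 to 6.57 and from 8.98 to 6.20 and fell 5.25-fold (limma adjusted p = 0.0437). Hhip, a target that binds the ligand, went from 6.13 to 4.11 and from 9.22 to 4.21, and the difference did not pass (0.115). It started 3.08 higher in replicate 2, and its day 5 levels were close. Both of these lay below the level filter of 4.64, so the size of the fall in each replicate may be limited. Ptch1, the receptor and a target, went from 10.74 to 10.28 and from 11.39 to 10.29 (0.138). Gas1, a coreceptor for the ligand, went the other way, from 6.90 to 8.08 and from 7.31 to 8.02 (0.0928).

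Lists with 1 called gene each showed the same mixture of agreement and spread. Over all genes tested, 0.112% rose and 0.418% fell in the fit. Sycp3, which builds the axis of meiotic chromosomes, went from 9.99 to 8.72 and from 11.18 to 9.66 and fell 2.64-fold (limma adjusted p = 0.0437). It was the 1 called gene of 21 germ cell and meiosis genes. Of 21 imprinted genes Peg10 rose, and Phlda2, a brake on placental growth, went from 10.00 to 8.40 and from 11.51 to 9.20 without passing (0.0517). Grb10, an adaptor that binds insulin and IGF receptors, went from 10.82 to 9.96 and from 12.05 to 10.53 (0.087).

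Of 14 ephrin and Eph receptor genes Efnb2 rose, and Epha1, a receptor, went from 5.38 to 7.06 and from 5.96 to 8.61 (limma adjusted p = 0.0724). Of 18 adhesion genes Itga1 rose, and Cldn6, a tight junction protein of the epiblast, went from 6.35 to 7.68 and from 7.17 to 9.58 (0.0773). Of 10 basement membrane genes 0 passed in limma, with 4 at an unadjusted p below 0.05 (21.8% of all genes). In both pairs 1 was higher and 3 were lower. Nid1, which links laminin and collagen networks, went from 10.80 to 9.25 and from 10.29 to 9.15 (0.0567). Lama1, a laminin chain, went from 7.21 to 6.06 and from 8.83 to 6.67 (0.087). Lamb1, another laminin chain, was the higher one, from 9.22 to 9.88 and from 9.94 to 11.46 (0.118).

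Interferon-response genes were mixed. Of 13 tested, 0 passed in limma, with 7 at an unadjusted p below 0.05 (21.8% of all genes). At least 2-fold higher in both pairs were 3 (0.455% of all genes): Gbp2, Bst2 and Psmb8. Bst2, the tetherin that holds viruses at the membrane, went from 8.09 to 9.22 and from 8.24 to 10.26. Psmb8, an immunoproteasome subunit, went from 4.01 to 5.33 and from 4.56 to 7.66. By contrast Ifitm3 was at 10.28 and 9.00 and at 9.49 and 9.27, and B2m at 9.01 and 8.17 and at 9.83 and 9.51. Of the guanylate-binding family, Gbp7 moved by 0.44 and 2.56.

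The promoters of Gbp2 and Gbp2b each held the core of the interferon-stimulated response element. This motif, a pair of GAAA runs separated by any 2 bases, was searched on both strands in the 250 bases before each start in RefSeq promoters of build GRCm38.p6. The 3 stretches below show the match in the 3 higher genes that hold it, in capitals and on either strand, read 5′ to 3′ along the gene. They lie at chr3:142620564-142620653 (+), chr3:142594670-142594759 (+) and chr8:71537553-71537642 (-).
Gbp2: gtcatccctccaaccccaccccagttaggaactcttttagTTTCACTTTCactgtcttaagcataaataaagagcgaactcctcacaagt
Gbp2b: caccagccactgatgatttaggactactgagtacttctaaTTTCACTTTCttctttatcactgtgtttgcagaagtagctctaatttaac
Bst2: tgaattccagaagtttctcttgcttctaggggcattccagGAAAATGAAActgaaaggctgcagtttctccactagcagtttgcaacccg

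A match was found for 3 of the 40 genes at least 2-fold higher in both pairs that had a promoter, or 7.5%, and for 2.73% of the 10793 tested genes with one. Over all 32851 promoter windows the share was 2.98%. Of the 106 genes at least 2-fold lower in both pairs that had a promoter, 3 (2.83%) held a match. So did 10 of 21 interferon-response and guanylate-binding genes (47.6%), among them B2m, which was lower in both pairs. The FOXO motif GTAAACA was found for 0 of the same 40 genes and for 2.77% of tested genes. Of the same 106 lower genes, 6 (5.66%) held it. The E-box CACGTG was found for 5 of the 40 (12.5%), among them Irs1, Irs2, Lef1 and Gbx2, and for 9.89% of tested genes. A match is a description of these letters.

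Genes of glucose use and of the amino acid response had unlike values in the pairs, as did those of other lists. The trophoblast medians were -0.13 in pair 1 and 0.75 in pair 2, and the neuroectoderm medians 0.25 and -0.08. Each side here is 1 pair of arrays from an apparent run of its own, so no p-value for the difference between pairs is given. Of 16 glycolysis genes tested, 11 were at least 2-fold higher in pair 2 and 0 in pair 1, against 5.81% and 0.664% of all genes tested. The list's median was -0.19 in pair 1 and 1.40 in pair 2. Pfkl, a phosphofructokinase, was at 9.97 and 10.00 in replicate 1 and at 7.27 and 10.11 in replicate 2. Ldha, lactate dehydrogenase A, was at 12.62 and 12.53 and at 10.77 and 12.83. Tpi1, a glycolytic isomerase, was at 12.13 and 11.92 and at 9.93 and 12.23.

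In these 3 genes the untreated sample of replicate 2 stood apart, and the other 3 samples lay close together. Over the list the untreated median was 11.85 in replicate 1 and 10.09 in replicate 2, a median gap of -1.57, whereas over all genes tested the gap was 0.21. Aldoc, an aldolase, went from 9.76 to 8.18 in replicate 1 and from 6.99 to 8.39 in replicate 2, and was among the 20 genes of opposite direction. HIF and hypoxia genes had medians of -0.39 and 0.63. Of 17 tested, 7 were at least 2-fold higher and 2 lower in pair 2, against 0 and 3 in pair 1. Egln3, an oxygen-sensing hydroxylase, went from 8.75 to 7.58 and from 6.33 to 8.21. Vegfa, a growth factor of blood vessels, did not split: it went from 8.20 to 7.27 and from 8.56 to 7.26. Cholesterol and fatty acid synthesis genes had medians of -0.12 (0.03 when centred) and 0.53. Of 27 tested, 3 were at least 2-fold higher in pair 2 (5.81% of all genes) and 0 in pair 1.

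Amino acid response genes split the other way. ATF4 drives a programme that supplies amino acids when their level or protein folding fails. Of its 15 regulators and targets tested, 11 were at least 2-fold lower in pair 2 and 0 in pair 1, against 3.9% and 2.72% of all genes tested. The medians were -0.18 in pair 1 and -1.45 in pair 2. Nupr1, a stress-response chromatin protein, was at 9.49 and 8.56 in replicate 1 and at 11.20 and 6.84 in replicate 2. Chac1, which degrades glutathione, was at 10.04 and 10.01 and at 10.22 and 8.16. Atf4 itself was at 12.67 and 12.59 and at 12.54 and 11.39.

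Here Chac1 and Atf4, chosen after their values were seen, had like untreated levels, and the day 5 sample of replicate 2 was the low one. Nupr1, Vldlr, Ddit4 and Sesn2, the 4 with the smallest p, started 1.72, 1.56, 1.65 and 0.96 higher in replicate 2. Over the list the untreated median was 9.44 in replicate 1 and 10.28 in replicate 2. The median gap was 0.93, against 0.21 over all genes tested. Serine, proline and sulfur amino acid synthesis genes had medians of -0.28 and -1.39, with 7 of 11 at least 2-fold lower in pair 2 and 1 in pair 1. Cth, which makes cysteine, went from 11.89 to 10.93 and from 12.77 to 10.26. Amino acid transporters had medians of -0.11 (0.03 when centred) and -0.97, with 4 of 9 at least 2-fold lower in pair 2 and 0 in pair 1. Aminoacyl-tRNA synthetases had medians of -0.21 and -0.71, with 2 of 12 and 0. Over all genes tested these shares were 3.9% and 2.72%.

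The CEBP-ATF composite element, bound by ATF4 with CEBP partners, was searched as TGATGCAA on both strands. It was found for 7 of 38 genes of the ATF4 and amino acid lists (18.4%), for 0.676% of tested genes and in 0.791% of all promoter windows. Gadd45g, at least 2-fold higher in both pairs, held a match too, as did Aars, which did not reach 2-fold in either pair. The 3 stretches below are from tested genes at least 2-fold lower in pair 2 but not in pair 1. The match is in capitals, and they lie at GRCm38.p6 chr7:126625533-126625620 (-), chr19:27216780-27216867 (+) and chr2:119351009-119351096 (+).
Nupr1: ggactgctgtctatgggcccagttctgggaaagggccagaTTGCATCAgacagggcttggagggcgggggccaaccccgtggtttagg
Vldlr: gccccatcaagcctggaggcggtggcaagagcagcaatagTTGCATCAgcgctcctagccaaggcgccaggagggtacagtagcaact
Chac1: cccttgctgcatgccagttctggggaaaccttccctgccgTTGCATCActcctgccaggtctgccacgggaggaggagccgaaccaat

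The hypoxia response element core ACGTG, which every CACGTG also holds, was found for 20 of 31 genes of the glycolysis and hypoxia lists (64.5%), against 24.6% of the tested genes with a promoter and 16.6% of all windows.

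**Figure D3:**
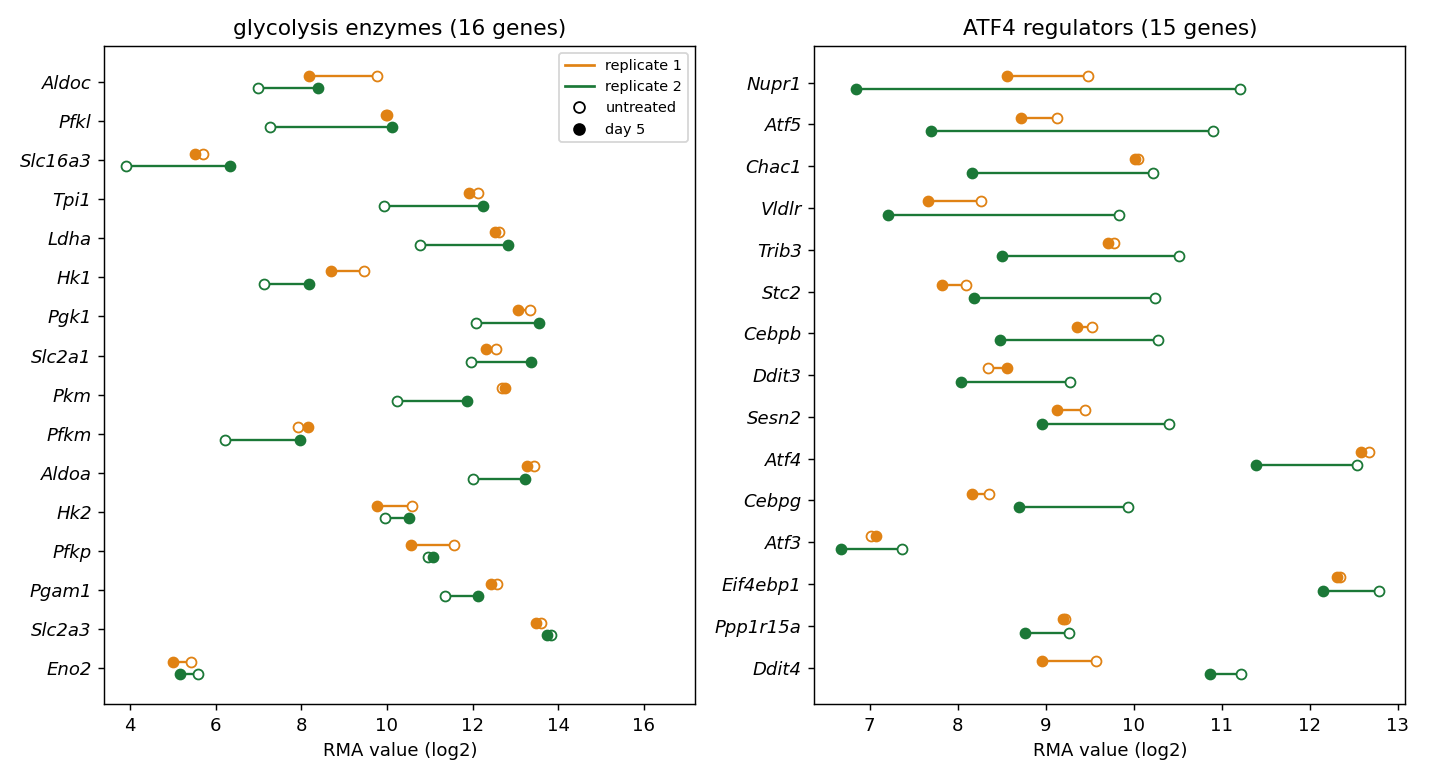
RMA values (log2) of 16 glycolysis genes and 15 ATF4 regulators, untreated (open) and at day 5 (filled), in replicate 1 (orange) and replicate 2 (green). For most glycolysis genes the untreated sample of replicate 2 is the low one, and for most ATF4 genes the day 5 sample of replicate 2 is.

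The 20 genes of opposite direction all had a lower untreated level in replicate 2 than in replicate 1, with a median gap of -1.83. Choosing genes lower in pair 1 and higher in pair 2 favours such a gap, so this describes the levels only. The 6 with the largest smaller difference were H2-Q2, A2m, Pygl, Ltb, Rbm44 and Zc3h6. Pygl, the liver glycogen phosphorylase, went from 7.68 to 5.84 in replicate 1 and from 3.80 to 5.52 in replicate 2. A2m, a broad protease inhibitor, went from 8.89 to 7.14 and from 4.59 to 6.60. In both genes the replicates ended close together at day 5. Ltb, the cytokine lymphotoxin beta, did not converge: it went from 7.71 to 6.01 and from 6.64 to 10.24. The array medians of the untreated samples were 5.05 in replicate 1 and 5.37 in replicate 2. The part of the run in these levels was not tested, and the apparent run cannot be told apart from the replicate.

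**Figure D4:**
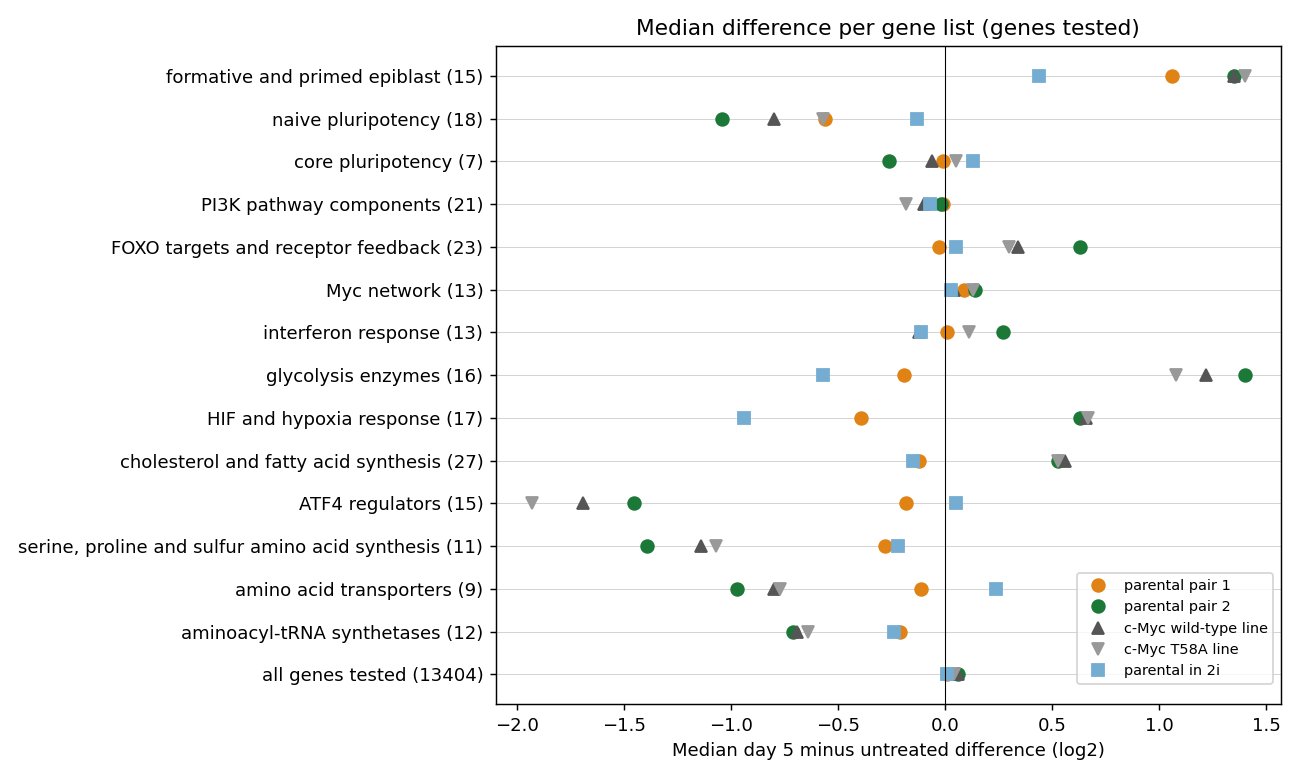
Median day 5 minus untreated difference (log2) of each gene list in parental pair 1, parental pair 2, the 2 c-Myc lines and parental cells in 2i, with the number of genes tested in brackets. Formative genes lie right of 0 in all 5, while glycolysis and ATF4 lists of pair 2 lie with the c-Myc lines and those of pair 1 nearer to 0.

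The samples with no shared array gave a second view of the 199 genes. Of the 61 higher genes, all 61 were higher in both c-Myc lines, against 45.8% of all genes tested. At least 2-fold higher in both lines were 47 (77.0%), against 2.64% of all genes tested. Of the 138 lower genes, 136 were lower in both lines, against 35.1%, and 97 (70.3%) were at least 2-fold lower, against 2.41%. The level filter counted the c-Myc arrays too, so some genes, such as Wt1, entered the 61 only through a c-Myc array. With no level filter the counts in the parental pairs were 62 higher and 139 lower. In 2i, where there was 1 pair and no test, 4 of the 61 (6.56%) were at least 2-fold higher, against 0.395%. Without a size limit, 36 of the 61 (59%) were higher in 2i, near the 52.2% of all genes tested. Of the 138, 30 (21.7%) were at least 2-fold lower, against 1.71%, and 125 (90.6%) were lower without a size limit, against 47.5%.

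Single genes showed the spread. Gbp2 differed by 4.74 and 2.86 in the wild-type and T58A c-Myc lines and by 0.16 in 2i, Slc40a1 by 4.15 and 4.32 and by -0.54, and Pou3f1 by 3.60 and 2.56 and by 0.54. Sox11 differed by 2.07 and 1.88 and by 1.20. Phlda2 differed by -1.60 and -2.31 in the parental pairs, by -1.73 and -1.71 in the c-Myc lines and by -1.87 in 2i. The test of parental minus c-Myc lines at day 5 called 0 genes in limma, with 457 at an unadjusted p below 0.05, and without parental replicate 2 it called 1340. A lack of calls here does not show that the lines responded alike.

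The c-Myc lines were also set beside the genes that reached 2-fold in 1 parental pair alone. Of 718 genes at least 2-fold higher in pair 2 alone, 246 (34.3%) were at least 2-fold higher in both c-Myc lines, and of 28 higher in pair 1 alone, 8 (28.6%) were. Of 385 at least 2-fold lower in pair 2 alone, 180 (46.8%) were at least 2-fold lower in both c-Myc lines. Of 226 at least 2-fold lower in pair 1 alone, 14 (6.19%) were at least 2-fold lower in both c-Myc lines and 66 (29.2%) in 2i. By array medians and decimals, the c-Myc lines appear to share a run with replicate 2 and the 2i samples with replicate 1. The part of the run in these shares was not tested.

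**Figure D5:**
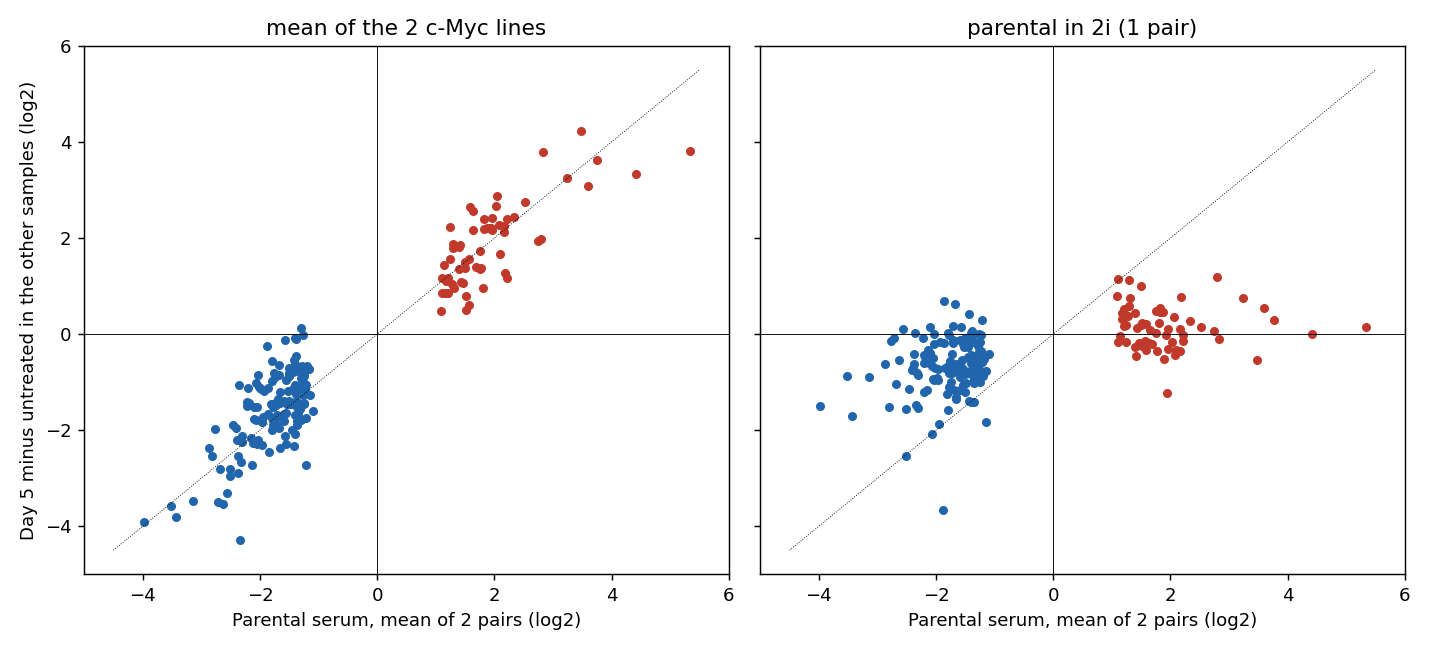
Day 5 minus untreated difference (log2) of the 199 genes in parental serum cells (x axis, mean of 2 pairs) against the mean of the 2 c-Myc lines (left) and parental cells in 2i (right), with red for the 61 higher and blue for the 138 lower genes. In the c-Myc lines all 61 red genes lie above 0, whereas in 2i they spread around it.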

How the data were processed

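Total RNA was measured on Affymetrix arrays, 1 per sample. Values are log2 intensities per probe set, deposited after the authors ran RMA with the affy package, per the submitters' processing notes; versions are not given in the sources used here. The number of arrays limits the precision. Of 45101 probe sets, 34945 named 1 gene, and each of 18193 genes was read from its brightest probe set on average across the 18 arrays. Genes with at least 2 samples of the fit above 4.64, the 40th percentile, were tested (13404). Each day 5 sample was paired with the untreated sample that its label names as reference. Deviations of the 2 parental replicates correlated between untreated and day 5 samples at r = 0.563 over genes. Between the c-Myc lines, which appear to share a run, the value was 0.172. An offset between runs enters both parental deviations, so this correlation cannot show that the pairing is right. The 8 serum samples were fitted in limma 3.58.1 (R 4.3.3, lmFit and eBayes) with the pair as a block, p-values 2-sided and Benjamini-Hochberg adjusted. The procedure was tested on simulated data.

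Named genes were the 12 largest rises and 12 largest falls by the smaller pair difference, the 6 largest of opposite direction, and for each list the 4 members with the smallest p, with all PI3K, FOXO and Myc network members open to naming. The members and the 41 gene lists were chosen with earlier results of these data known. Genes named outside these rules, among them Ldha, Tpi1, Egln3, Chac1 and Atf4, were chosen after their values were seen. Alternatives changed the block, the samples, scaling, filter, probe set rule, prior and thresholds. Promoter sequences are from RefSeq, build GRCm38.p6, and 10793 tested genes matched by symbol.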

Additional observations from a re-analysis of the deposited data

Results flagged for a closer look

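In 5 of the named genes both parental pairs were lower at day 5 while both c-Myc lines were higher, and for none did the limma test of the difference pass. Tfap2c, a transcription factor of germ cells and trophoblast, had a parental change of -0.36 (-0.23 and -0.49), while the wild-type line had 0.66 and the T58A line 0.56. Msmo1, a cholesterol synthesis enzyme, had a parental change of -0.74, against 0.01 and 0.20. Hsd17b7, which acts in the same pathway, had -0.45, against 0.04 and 0.12. Ero1a, an oxidase of the endoplasmic reticulum, had -0.45, against 0.14 and 0.03. Tdgf1, a Nodal coreceptor, had -0.21 (-0.40 and -0.01), against 0.00 and 0.02. The differences in the c-Myc lines were small for the last 4 genes.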

How the results depend on the processing

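The count of 71 called genes depended on the model. Without the replicate block it was 0, and in the 4 parental samples alone it was 0 with the pair as a block and 0 without. Leaving out 1 replicate or line gave 0 to 4711. Centring gave 134, quantile normalization 122 and an adjusted p of 0.1 gave 455. The other 4 alternatives gave 65 to 87. The test of parental minus c-Myc lines ran from 0 to 1340 with 1 left out and was 0 otherwise. A limma count for pair 2 minus pair 1 moved with the setting: 3272 after centring, 941 with no level filter and 3709 with the trend and robust prior. That fit had 1 pair of arrays on each side and 1 residual degree of freedom, so its spread came from the c-Myc lines alone. These counts therefore describe the settings and do not show which genes differ between the pairs. The 199 genes of both pairs were 670 at 1.5-fold and 153 to 206 under the other settings.

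Centring moved the median of all genes from 0.01 to 0.15 in pair 1 and from 0.06 to -0.10 in pair 2. Of 57 named genes, 54 were tested under the 60th percentile filter, 56 with the mean of probe sets and without either parental replicate, and 57 otherwise; 0 changed sign together with a call where tested. Of the 12 rises and 12 falls, 10 genes have 1 probe set, and of the other 14, 10 had the same direction in every probe set. A pair of arrays per condition gives no precision beyond the spread seen here.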

Other observations

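A set of 4 keratin and annexin genes, chosen after their values were seen, was at least 2-fold higher in pair 2 and not in pair 1. Krt8 was at 7.04 untreated and 7.15 at day 5 in replicate 1 and at 6.56 and 10.34 in replicate 2. Krt18, its filament partner, was at 7.53 and 7.90 and at 6.27 and 10.48. Anxa1, a membrane-binding annexin, was at 6.63 and 6.72 and at 5.74 and 10.41, and Anxa3 at 6.43 and 6.61 and at 5.25 and 9.90. In these 4 genes the day 5 sample of replicate 2 was the highest of the 4 samples. Relatives of these genes differed in replicate 1 too: Anxa2 went from 8.98 to 7.86 and from 6.24 to 9.34, and Krt7 from 5.11 to 3.52 and from 3.82 to 4.10.

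Other genes, also chosen after their values were seen, were at least 2-fold lower in replicate 1 and not in replicate 2. Lefty2, a Nodal inhibitor, went from 8.52 to 5.23 in replicate 1 and from 6.99 to 7.61 in replicate 2. Stra8, which starts meiosis, went from 9.39 to 6.74 and from 6.01 to 5.54, and in 2i from 10.26 to 7.52. Tgm2, a transglutaminase, went from 7.89 to 4.76 and from 4.55 to 5.25.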
